A study of Mus musculus with 12 samples.

Results

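The SOCS family of mouse colonoids was described from 8 genes, Socs1 to Socs7 and Cish, taken by name from the deposited count table of 35869 gene symbols. All 8 had counts in every library and all 8 passed the filter on low counts, as did 13987 genes of the table. Colonoids are spheres of gut epithelium that grow when crypts of the colon are embedded in a matrix gel. Here the crypts were those of C57BL/6 mice, kept in medium with epidermal growth factor and L-WRN conditioned medium, which supplies Wnt3a, R-spondin and noggin. The 4 groups of 3 libraries were unstimulated cultures, cultures with recombinant mouse IL-22 at 1 ng/mL, cultures with recombinant mouse IL-1b at 100 ng/mL, and cultures with both cytokines at those doses, each for 12 h. The 4 groups shared strain, medium and time, and no engineered allele is given for any of them. Whether replicates stand for separate animals or separate cultures is not labelled. All p-values therefore refer to the spread between these samples, and that spread may be technical. Polyadenylated RNA was sequenced, and a library held 4703902 to 5804033 counts. The series addressed the roles of IL-1 receptor signalling in gut epithelial cells.

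SOCS proteins are the classical negative feedback arm of the JAK-STAT pathway. A cytokine brings Janus kinases together on its receptor, the kinases activate STAT factors, the STATs switch on Socs genes, and the SOCS proteins then bind the receptor or the kinase through an SH2 domain and shut the signal down. A carboxy-terminal SOCS box recruits elongins and a cullin ubiquitin ligase, which marks the bound protein for degradation. SOCS1 and SOCS3 can also block the kinase directly, and CIS, the product of Cish, and SOCS2 are best known as feedback genes of STAT5. SOCS4 to SOCS7 are tied more to growth factor receptors than to cytokine feedback. In intestinal epithelium IL-22 signals through its receptor to STAT3, and Socs3 is a textbook target of STAT3. IL-1b acts through NF-kB from its own receptor and does not use Janus kinases.

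Promoter windows of 250 bases before to 50 after the RefSeq start (GRCm38.p6) were found for 4 of the 8 genes, Socs1, Socs3, Socs4 and Cish. Those of Socs3, Cish and Socs1 are shown because these genes carry the largest differences below. Each also holds a match to a STAT or interferon response motif, which the Socs4 window does not. That contrast rests on the Socs4 window alone, and Socs6, also called below, has no window. A link between motifs and differences was not tested. Capitals mark matches to TTCNNNGAA, the palindrome bound by STAT dimers, in Socs3 and Cish, and to GAAANNGAAA, the core of an interferon response element, in Socs1. For Socs3 the 250 bases before the start are given, chr11:117969367-117969616, minus strand, with 1 STAT palindrome that begins at position -154 from the start. For Cish the 30 bases around the start are given, chr9:107296654-107296683, plus strand, with STAT palindromes that begin at positions 1 and 12. For Socs1 the 250 bases before the start are given, chr16:10785537-10785786, minus strand, with GAAANNGAAA matches that begin at positions -83 and -77 and overlap each other.
Socs3: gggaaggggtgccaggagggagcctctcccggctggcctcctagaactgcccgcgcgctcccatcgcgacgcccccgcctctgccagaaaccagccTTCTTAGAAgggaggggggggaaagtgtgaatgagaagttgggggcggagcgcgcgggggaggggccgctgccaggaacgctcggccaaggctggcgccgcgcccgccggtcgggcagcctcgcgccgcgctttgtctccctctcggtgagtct
Cish: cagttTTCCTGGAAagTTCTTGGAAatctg
Socs1: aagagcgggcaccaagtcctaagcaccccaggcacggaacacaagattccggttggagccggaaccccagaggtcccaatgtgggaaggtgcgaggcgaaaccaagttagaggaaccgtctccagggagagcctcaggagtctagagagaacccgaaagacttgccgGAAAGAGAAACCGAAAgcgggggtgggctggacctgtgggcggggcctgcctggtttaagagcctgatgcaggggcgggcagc
Both strands were searched. TTCNNNGAA occurs in 8.3% of 32851 RefSeq windows of 300 bases, TTCNNNNGAA in 6.95% and GAAANNGAAA in 3.44%, and the last was added to the search after the Socs1 sequence was seen. TTCNNNNGAA is in none of the 4 windows. GGGNNNNNCC, a loose form of the kappa B motif, is in all 4 windows, 3 times in Socs1, but also in 50.8% of all windows. The Socs4 window holds no other motif searched. Position 1 is the RefSeq start, and a match is a description of the letters, not of bound protein. The gene positions given below come from another annotation, GENCODE M21, in which Socs3 and Cish begin farther upstream. The Socs3 window shown lies inside the GENCODE span of Socs3 (117966079 to 117970047). The Cish stretch likewise lies inside that of Cish (107296026 to 107302784).

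**Figure D1:**
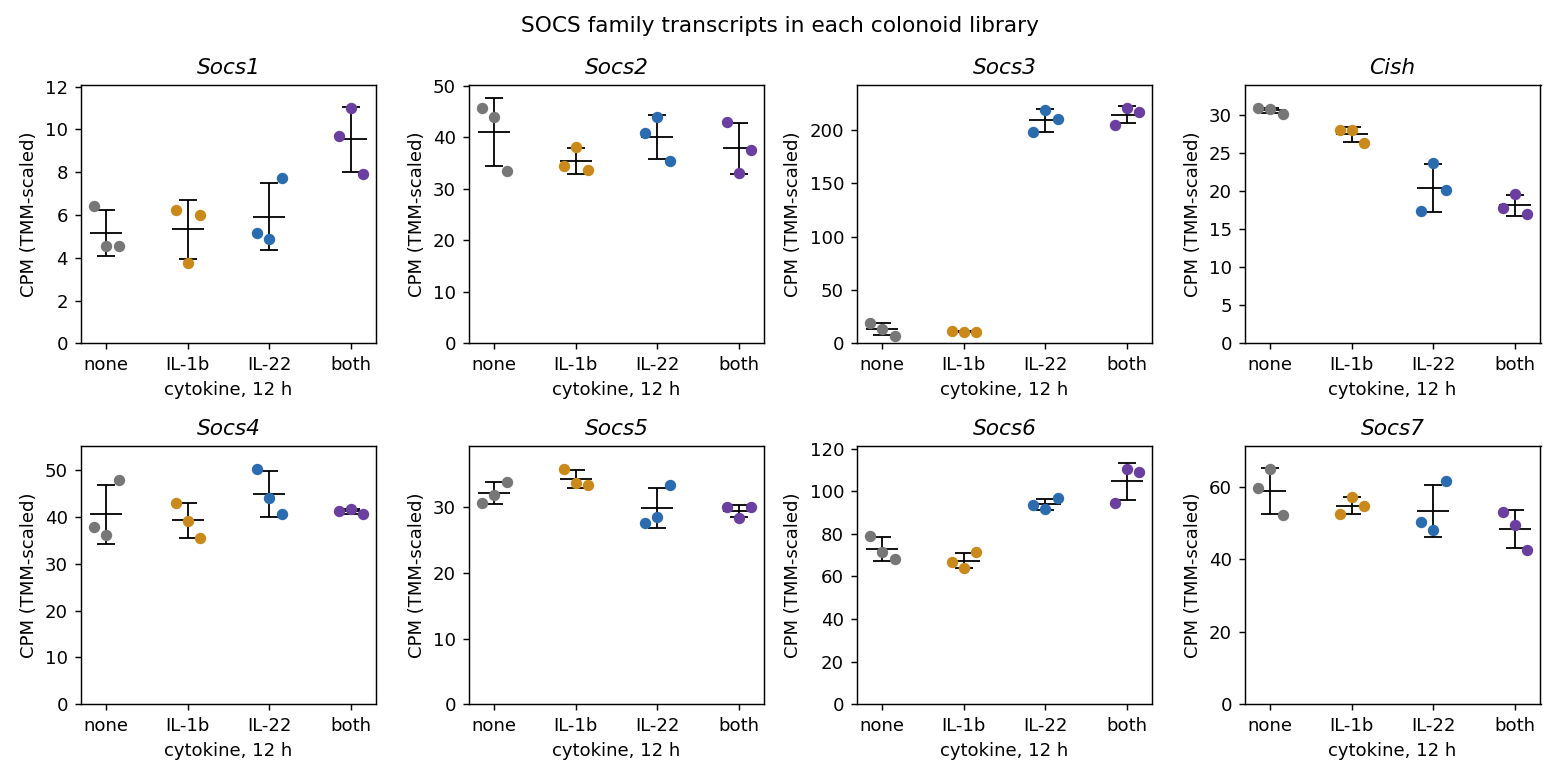
Normalised level of each SOCS family gene in each library (points; y axis, CPM after TMM scaling, from 0; x axis, cytokine given for 12 h), with the group mean and SD (n = 3). Socs3 lies between 7.40 and 19.1 CPM in the 6 libraries without IL-22 and between 198 and 220.3 CPM in the 6 with it, and Cish lies lower in the libraries with IL-22.

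Socs3, the STAT3-induced inhibitor of IL-6 family receptor signalling, was the member with the largest difference. The gene lies on chromosome 11 (mm10, 117966079 to 117970047, minus strand) and has its coding sequence in 1 exon. Unstimulated replicates 1, 2 and 3 held 107, 76 and 39 counts, which are 19.1, 13.8 and 7.40 CPM (counts divided by the library total after TMM scaling). With IL-22 the replicates held 958, 989 and 1118 counts, or 198, 219 and 211 CPM. With IL-1b they held 62, 55 and 67 counts, or 11.4, 10.3 and 11.1 CPM, and with both cytokines 1017, 1124 and 1013 counts, or 205, 220.3 and 217 CPM. Every library with IL-22 was far above every library without it, and the IL-1b libraries lay inside the range of the unstimulated ones. The unstimulated libraries differed among themselves by more than those of any other group in proportion to their mean. Against unstimulated cultures Socs3 rose 15.4-fold with IL-22 and 15.8-fold with both cytokines, log2 fold changes of 3.95 ± 0.16 (SE) and 3.98 ± 0.16 (quasi-likelihood test of edgeR with Benjamini-Hochberg adjustment, adjusted p = 1.84e-09 and 2.14e-09). With IL-1b alone the difference was -0.30, with a 95% interval from -0.79 to 0.19 that takes in 0 (edgeR adjusted p = 0.667). With IL-22 Socs3 had 0.331 to 0.389 counts per exon base, against 0.013 to 0.037 without it. Removal of duplicate reads, which could hold down counts at the higher coverage, is not stated in the sources used here. Corrected for positions counted once, as given in the closing section, the rise of Socs3 was larger.

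The response of Socs3 to IL-22 was of the same order with and without IL-1b. Both cytokines against IL-22 gave a log2 difference of 0.03 ± 0.12 (95% interval -0.22 to 0.29, edgeR quasi-likelihood test, adjusted p = 0.958), so IL-1b added to IL-22 moved Socs3 by at most 0.29 on that interval. Both cytokines against IL-1b gave 4.28 ± 0.16 and IL-22 against IL-1b 4.25 ± 0.16 (edgeR adjusted p = 1.19e-09 and 1.02e-09). The interaction term, the IL-22 effect with IL-1b minus that without, was 0.34 ± 0.26 and did not pass the test (edgeR adjusted p = 0.975). Its 95% interval ran from -0.22 to 0.89.

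Cish, which encodes the STAT5-induced inhibitor CIS, went the other way. It lies on chromosome 9 (107296026 to 107302784, plus strand). The unstimulated libraries held 30.8, 30.7 and 30.2 CPM, those with IL-22 17.3, 23.7 and 20.2 CPM, those with IL-1b 27.9, 28.03 and 26.3 CPM, and those with both cytokines 17.8, 19.6 and 16.9 CPM. All 6 libraries with IL-22 were below all 6 without it, and the 3 IL-1b libraries were below the 3 unstimulated ones. Cish fell to 0.666 of the unstimulated level with IL-22 and to 0.593 with both cytokines, log2 fold changes of -0.59 ± 0.11 and -0.75 ± 0.12 (edgeR quasi-likelihood test, adjusted p = 0.00233 and 0.000306). With IL-1b alone the difference was -0.16 ± 0.11 (edgeR adjusted p = 0.638), and groups that do not overlap were found for 16.7% of all genes tested in that comparison. Both cytokines against IL-1b gave -0.60 ± 0.12 (edgeR adjusted p = 0.00201) and IL-22 against IL-1b -0.43 ± 0.12 (edgeR adjusted p = 0.0145). The latter call was lost without IL-22 replicate 1 (edgeR adjusted p = 0.0604). Of the 6419 exon bases of Cish, 740 (11.5%) are shared with the gene models Gm17040 and Gm17041 on the opposite strand. The counting strand is not given in the sources used here, so reads of the 2 strands cannot be told apart there. The other 7 members share no exon base with another gene model.

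Socs1, the inhibitor of Janus kinases best known from interferon signalling, was the least abundant member, with 20 to 56 counts a library. It lies on chromosome 16 (10782240 to 10785536, minus strand). Its unstimulated libraries held 6.41, 4.55 and 4.55 CPM, those with IL-22 5.16, 4.87 and 7.73 CPM, those with IL-1b 6.25, 3.76 and 5.99 CPM, and those with both cytokines 9.69, 10.98 and 7.94 CPM. The 3 libraries with both cytokines were the highest of the 12, and the other 3 groups overlapped. Socs1 rose 1.84-fold with both cytokines, which is 0.88 ± 0.25 on the log2 scale (edgeR quasi-likelihood test, adjusted p = 0.0175). Differences from unstimulated were 0.20 ± 0.26 with IL-22 and 0.05 ± 0.26 with IL-1b, with 95% intervals of -0.36 to 0.77 and -0.51 to 0.61 (edgeR adjusted p = 0.632 and 0.962). Socs1 was also higher with both cytokines than with IL-1b, by 0.83 ± 0.25 (edgeR adjusted p = 0.0223). Against IL-22 the difference was 0.68 ± 0.25 and did not pass over all genes (edgeR unadjusted p = 0.0159, adjusted p = 0.370), although the groups did not overlap, as was the case for 12.1% of all genes tested. The interaction term of Socs1 was 0.63 ± 0.36 (95% interval -0.14 to 1.40, edgeR adjusted p = 0.973). The data thus do not show that the 2 cytokines together did more than the sum of their log2 effects. The call of Socs1 for both cytokines against unstimulated was lost without unstimulated replicate 2 or 3 or without replicate 2 of both cytokines (edgeR adjusted p = 0.0688, 0.0534 and 0.0590). The call against IL-1b was lost without IL-1b replicate 2, or without replicate 1 or 2 of both cytokines (edgeR adjusted p = 0.0931, 0.0559 and 0.0827).

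Socs2, the inhibitor of growth hormone signalling, passed no test. It lies on chromosome 10 (95385362 to 95417180, minus strand). Group means were 41.0 ± 6.65 CPM (SD, n = 3) when unstimulated, 35.4 ± 2.46 with IL-1b, 40.1 ± 4.26 with IL-22 and 37.9 ± 4.93 with both, and all groups overlapped. The log2 differences from unstimulated were -0.22 ± 0.13 with IL-1b, -0.04 ± 0.13 with IL-22 and -0.12 ± 0.13 with both (edgeR quasi-likelihood test, adjusted p = 0.596, 0.869 and 0.537). Cish and Socs2, both known as STAT5 feedback genes, thus differed in their calls with IL-22, and the difference between these 2 genes was not tested.

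Socs6, which binds activated receptor tyrosine kinases such as KIT, was the only member besides Socs3 that rose with IL-22 alone. It lies on chromosome 18 (88665224 to 88927481, minus strand). Its unstimulated libraries held 78.9, 71.3 and 68.1 CPM, those with IL-22 93.3, 91.5 and 96.7 CPM, those with IL-1b 66.7, 64.2 and 71.3 CPM, and those with both cytokines 94.4, 110.4 and 109 CPM. All 6 libraries with IL-22 were above all 6 without it, and the libraries with both cytokines overlapped those with IL-22. Socs6 rose 1.29-fold with IL-22 and 1.44-fold with both cytokines, by 0.37 ± 0.08 and 0.52 ± 0.08 on the log2 scale (edgeR quasi-likelihood test, adjusted p = 0.00380 and 0.000211). With IL-1b the difference was -0.11 ± 0.08 (95% interval -0.28 to 0.06, edgeR adjusted p = 0.648). Both cytokines against IL-1b gave 0.63 ± 0.08 and IL-22 against IL-1b 0.48 ± 0.08 (edgeR adjusted p = 5.25e-05 and 0.000592). Adding IL-1b to IL-22 gave 0.16 ± 0.08 (edgeR adjusted p = 0.519). The interaction term was 0.27 ± 0.11, with an unadjusted p of 0.0288 and an adjusted p of 0.938 (edgeR).

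Socs4 and Socs5, whose proteins are linked to the epidermal growth factor receptor, and Socs7, which binds adaptors of growth factor and insulin signalling, passed no test against unstimulated cultures. Socs4 (chromosome 14, 47276931 to 47296102, plus strand) had means of 40.6 ± 6.29, 44.9 ± 4.87, 39.2 ± 3.71 and 41.2 ± 0.602 CPM (SD, n = 3) in unstimulated, IL-22, IL-1b and both, with differences from unstimulated of 0.15, -0.05 and 0.02 and standard errors of 0.11 to 0.12. Socs5 (chromosome 17, 87107679 to 87137839, plus strand) had means of 32.1 ± 1.67, 29.9 ± 3.07, 34.3 ± 1.33 and 29.5 ± 0.940 CPM, with differences of -0.10, 0.09 and -0.12 and standard errors of 0.09. The 3 Socs5 libraries with both cytokines, at 28.4 to 30.1 CPM, were below the 3 unstimulated ones, at 30.6 to 33.9 CPM, and below the 3 with IL-1b, at 33.4 to 35.8 CPM. Against IL-1b that difference was -0.22 ± 0.09 (edgeR quasi-likelihood test, unadjusted p = 0.0357, adjusted p = 0.103). Socs7 (chromosome 11, 97362551 to 97398542, plus strand) had means of 58.9 ± 6.42, 53.4 ± 7.28, 54.9 ± 2.41 and 48.5 ± 5.28 CPM. Its largest difference from unstimulated was -0.28 ± 0.11 with both cytokines (95% interval -0.52 to -0.05, edgeR unadjusted p = 0.0228, adjusted p = 0.0722), a value that passed the test without unstimulated replicate 3 (adjusted p = 0.0318) or without IL-22 replicate 3 (adjusted p = 0.0446). With growth factor in the medium of every group, these genes were measured only in its presence.

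**Figure D2:**
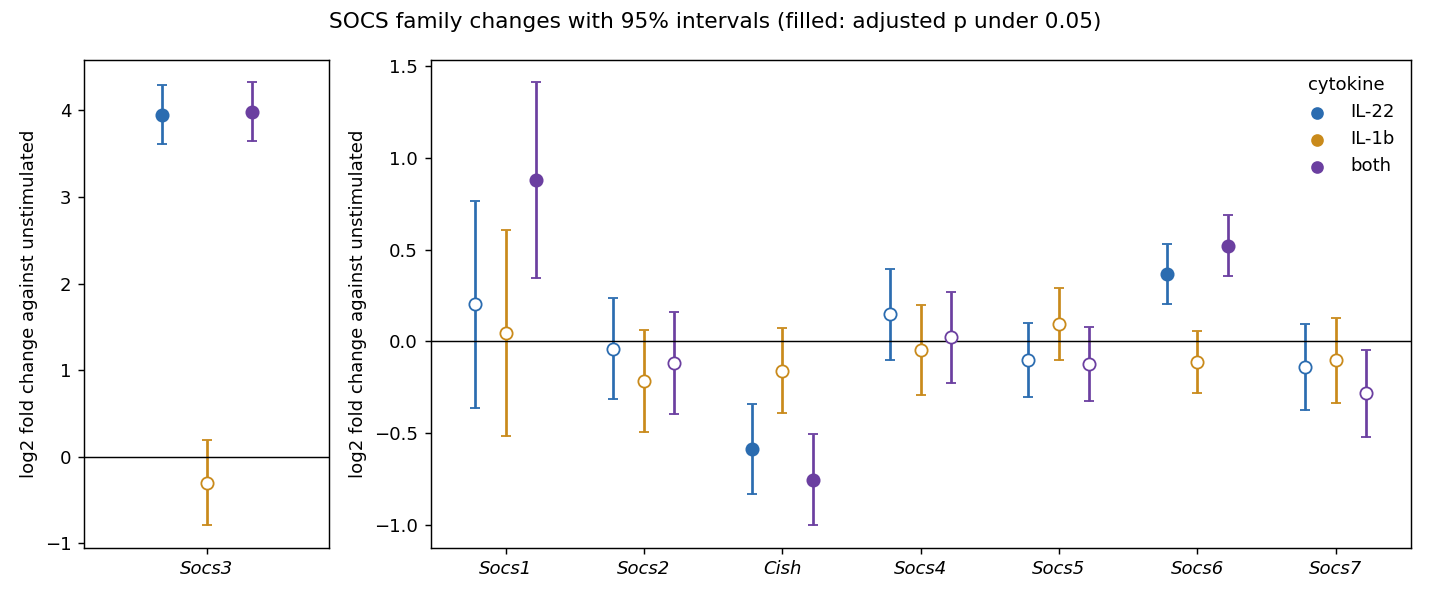
Log2 fold change of each SOCS family gene against unstimulated cultures with its 95% interval (y axis), for IL-22, IL-1b and both cytokines (colours), with Socs3 on an axis of its own. Filled points passed the edgeR quasi-likelihood test at an adjusted p under 0.05: Socs3, Socs6 and Cish with IL-22, none with IL-1b, and Socs1, Socs3, Socs6 and Cish with both.

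Counted over the family, 2 of 8 members rose (Socs3 and Socs6) and 1 fell (Cish) with IL-22, where 11.9% of all genes tested rose, 10.6% fell and 22.5% were called in either direction. With both cytokines 3 rose (Socs1, Socs3 and Socs6) and 1 fell (Cish), where 13.7% of all genes rose, 13.3% fell and 27% were called. Groups did not overlap for 3 members with IL-22 (34.7% of all genes) and for 5 with both cytokines (42.3%), those called and Socs5. No test was made of the number of members called. With IL-1b alone no member passed the edgeR quasi-likelihood test, none had an unadjusted p under 0.05 and none was called by DESeq2, where edgeR called 0.0715% of all genes. No member was called for both cytokines against IL-22, where 1 member (Socs1) had an unadjusted p under 0.05 in edgeR, DESeq2 called none and 0.0786% of all genes passed. Both cytokines against IL-1b called the same 4 members as both against unstimulated, beside 26.3% of all genes, and 5 members did not overlap, beside 44.4%. IL-22 against IL-1b called Socs3, Socs6 and Cish, beside 26.3%, and 4 members, those called and Socs5, did not overlap, beside 40.9%. These comparisons share libraries and are not independent of each other. The median log2 difference of the 8 members was -0.11 with IL-1b, 0.05 with IL-22 and -0.05 with both, and that of all genes lay within 0.01 of 0 in each.

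Pooling over IL-1b, the IL-22 main effect compared the 2 groups with IL-22 and the 2 without. It called Socs1 (0.52), Socs3 (4.12), Socs6 (0.50) and Cish (-0.59), with edgeR quasi-likelihood adjusted p = 0.0340, 1.04e-11, 8.04e-06 and 6.50e-05, and 39.8% of all genes passed. The 6 libraries with IL-22 did not overlap the 6 without for Socs3, Socs6 and Cish, as for 19% of all genes tested. Socs5 and Socs7 were at -0.16 each (edgeR adjusted p = 0.0700 and 0.120). The call of Socs1 was lost without each of 6 single libraries, with edgeR adjusted p from 0.0592 to 0.104. The IL-1b main effect called no member, with 0 of 8 at an unadjusted p under 0.05 in edgeR and 0.593% of all genes called. Socs1 was at 0.36 and Cish at -0.16 (edgeR adjusted p = 0.367 and 0.369). For the interaction edgeR called no gene (0%), with 705 of 13987 at an unadjusted p under 0.05, while DESeq2 called 4 genes, none a member. Among the members only Socs6 had an unadjusted interaction p under 0.05 in edgeR.

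Levels of different members can be compared only per length, so CPM was divided by the kilobases of exon of each gene. In unstimulated cultures the order on this scale was Socs7 (8.11 CPM per kilobase), Socs6 (6.41), Socs4 (5.90), Socs5 (5.01), Cish (4.76), Socs3 (4.64), Socs2 (4.30) and Socs1 (1.78). Only Socs7 and Socs6, and Socs2 and Socs1, were neighbours whose libraries did not overlap. Most of that order, its top included, changed with the length used, since the union of all annotated exons is much longer than one transcript for some members. By the length of the longest coding transcript the order began with Socs2 (18.5 CPM per kilobase), Socs6 (12.1), Cish (10.7) and Socs7 (8.40), and ended with Socs3 (5.26) and Socs1 (1.78). Socs2 thus moved from rank 7 to rank 1 and Socs7 from rank 1 to rank 4, while Socs6 held rank 2 and Socs1 rank 8 by both lengths. With IL-22 Socs3 was first by either length, at 72.4 CPM per kilobase of union exon and 82.0 per kilobase of coding transcript. By union exon length Cish had rank 5 in unstimulated cultures, where its libraries overlapped those of Socs3, and rank 8 with both cytokines, where they overlapped those of Socs1. By coding transcript it had rank 3 in unstimulated cultures and rank 5 with both, and Socs1 had rank 8.

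**Figure D3:**
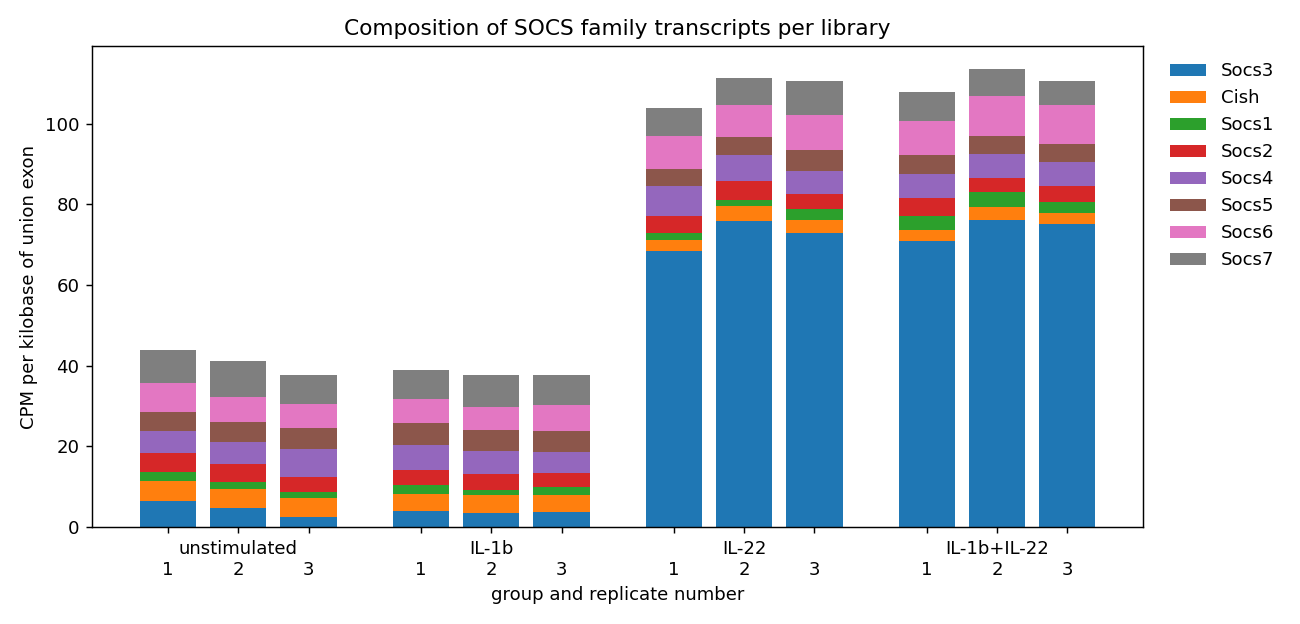
Stacked levels of the 8 SOCS family genes in each of the 12 libraries (y axis, CPM per kilobase of union exon, from 0; x axis, group and replicate number). Socs3 makes up 6.78% to 15.05% of the stack in unstimulated libraries, 65.8% to 68.1% with IL-22 and 65.8% to 68.0% with both cytokines, while the other 7 genes sum to 33.9 to 37.6 in every library.

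The make-up of the family therefore differed mainly through 1 gene. Socs3 held 6.78% to 15.05% of the summed family level per kilobase in unstimulated libraries and 9.48% to 10.2% with IL-1b. With IL-22 the share was 65.8% to 68.1%, and with both cytokines 65.8% to 68.0%. The other 7 members together held 35.2 to 37.2 CPM per kilobase in unstimulated libraries, 33.9 to 35.1 with IL-1b, 35.5 to 37.6 with IL-22 and 35.4 to 37.4 with both, so their sum moved little while Socs6 and Cish moved in opposite directions. The ratio of Socs3 to Cish, the STAT3 and the STAT5 feedback gene, was 0.545 to 1.37 in unstimulated libraries, 0.820 to 0.942 with IL-1b, 20.5 to 25.3 with IL-22 and 24.96 to 28.5 with both. These shares and ratios are per kilobase of union exon and depend on that length. Per kilobase of the longest coding transcript the Socs3 share was 4.598% to 10.002% in unstimulated libraries, 6.32% to 6.96% with IL-1b, 55.5% to 57.2% with IL-22 and 55.5% to 57.8% with both. The ratio of Socs3 to Cish on that scale was 0.274 to 0.691, 0.412 to 0.474, 10.3 to 12.7 and 12.6 to 14.3 in the same order. By either length the libraries with IL-22 did not overlap those without it in share or ratio. These are shares of RNA, and in bulk samples fewer cells of a type and less RNA per cell cannot be told apart.

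Genes with the most similar profile were found over the 12 libraries among 12014 tested genes with a mean of 5 CPM or more, as the smallest root mean square difference of log2 CPM after each gene was centred on its own mean. Nearest to Socs3 were Tifa (0.407), an adaptor of TRAF6 signalling, Trim10 (0.489), the sugar transporter gene Slc5a9 (0.571) and Ltf (0.572), which encodes lactoferrin. The log2 differences with IL-22 were 3.62 for Tifa, 5.28 for Trim10, 3.08 for Slc5a9 and 4.20 for Ltf, beside 3.95 for Socs3. With both cytokines they were 3.86, 5.94, 3.26 and 5.07 in that order, beside 3.98 for Socs3. Nearest to Socs6 were Ephb2 (0.0634), a receptor of ephrins in crypts, Lpgat1 (0.0660), Zdhhc3 (0.0663) and Nab1 (0.0744). Among the genes nearest to Cish were Bcl2l11 (0.0939), which encodes the pro-apoptotic protein BIM, Rogdi (0.0978) and Phlpp2 (0.101). These values describe likeness over libraries that share 4 treatments, and carry no test.

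The genes around the SOCS proteins were read in the same fit, list by list, beginning with the receptors. The counts of each list stand beside 22.5% of all genes called with IL-22 (11.9% higher, 10.6% lower). With both cytokines these shares were 27%, 13.7% and 13.3%, and with IL-1b 0.0715% of all genes were called. No test was made of the number of genes called in any list. Of 6 tested receptor genes of the IL-22 and IL-6 families, 2 rose and 1 fell with IL-22, and the same numbers held with both cytokines. Osmr, the oncostatin M receptor, which signals together with gp130, went from 11 summed counts in unstimulated cultures to 341 with IL-22 and 219 with both (5.09 ± 0.51 and 4.43 ± 0.54 on the log2 scale, edgeR quasi-likelihood test, adjusted p = 1.26e-05 and 4.40e-05). Il6st, which encodes gp130, rose by 0.49 ± 0.11 and 0.48 ± 0.11 (edgeR adjusted p = 0.00492 and 0.00410). Il11ra1 fell by 0.69 ± 0.18 with IL-22 (edgeR adjusted p = 0.0131, lost without unstimulated replicate 2 at 0.0689), and Il6ra by 0.98 ± 0.35 with both (edgeR adjusted p = 0.0495, lost without each of 10 single libraries and in DESeq2 at 0.213). The 2 chains of the IL-22 receptor did not pass the test: Il22ra1 had 143 ± 5.71 CPM in unstimulated cultures and 139 ± 11.4 with IL-22 (SD, n = 3), and Il10rb 119.95 ± 5.14 and 116 ± 6.08. Of 15 tested receptor genes of other cytokines and growth factors, 5 rose and 1 fell with IL-22 and 6 rose and 1 fell with both. Il4ra rose by 1.23 ± 0.07 and 1.44 ± 0.07, Il13ra1 by 0.73 ± 0.07 and 0.69 ± 0.07, Met by 0.64 ± 0.07 with IL-22, and Ifnar2 by 0.66 ± 0.18 with both, a call lost without replicate 3 of both (edgeR adjusted p = 0.0696). Kit, a receptor bound by SOCS6, fell by 1.07 ± 0.35 with IL-22 and 1.63 ± 0.37 with both (edgeR adjusted p = 0.0410 and 0.00517). The first call was lost without each of 7 single libraries, and without replicate 2 of both cytokines the second difference was -2.25.

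Kinases and STATs showed small differences beside that of Socs3. Of 4 Janus kinase genes 2 rose with IL-22 and 1 with both: Jak3 by 1.23 ± 0.12 and 1.12 ± 0.12 (edgeR quasi-likelihood test, adjusted p = 9.21e-06 and 1.61e-05) and Jak2 by 0.30 ± 0.07 with IL-22 alone (edgeR adjusted p = 0.00637). Of 6 tested STAT genes 2 rose and 1 fell with IL-22, and 2 rose and 2 fell with both. Stat3, the factor that induces Socs3, rose by 0.59 ± 0.07 and 0.51 ± 0.07 (edgeR adjusted p = 3.00e-05 and 7.35e-05), and Stat6 by 0.25 ± 0.06 and 0.30 ± 0.06. Stat5a, 1 of the 2 genes of the factor that induces Cish, fell by 0.48 ± 0.16 with IL-22 and 0.45 ± 0.16 with both (edgeR adjusted p = 0.0433 and 0.0475). Each Stat5a call was lost without any 1 of 9 libraries, and both were lost in DESeq2 (adjusted p = 0.0833 and 0.0887), with no filter beyond 1 count (0.0523 and 0.0634), with only the libraries compared (0.0608 and 0.0724) and after fold changes were corrected for their trend with exon coverage (0.217 and 0.254). Stat5b fell by 0.42 ± 0.10 with both (edgeR adjusted p = 0.00924, and 0.0502 without replicate 3 of both).

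Among other listed regulators of the pathway, mostly brakes, the called differences were smaller than that of Socs3. Of 13 tested regulators of JAK-STAT signalling outside the SOCS family, listed as inhibitors, 1 rose and 1 fell with IL-22, and 2 rose and 2 fell with both. Ptpn2, a phosphatase of Janus kinases and STATs, rose by 0.34 ± 0.06 and 0.33 ± 0.06 (edgeR quasi-likelihood test, adjusted p = 0.00105 and 0.00102), and Ptpn1 by 0.22 ± 0.06 with both (edgeR adjusted p = 0.0237). The ubiquitin ligase gene Cblb fell by 0.56 ± 0.14 with both and the adaptor gene Sh2b3 by 0.37 ± 0.10 (edgeR adjusted p = 0.00885 and 0.0150). The gene that fell with IL-22 was Sh2b1, by 0.26 ± 0.08 (edgeR adjusted p = 0.0360). Sh2b1 is an adaptor gene and not an established inhibitor, so no established inhibitor of this list was called lower with IL-22. The calls of Ptpn1 and Sh2b3 were each lost without 3 single libraries, and that of Sh2b1 without 4. In DESeq2 Ptpn1 did not pass either (adjusted p = 0.0749). Of 10 partners of the SOCS box ubiquitin ligase 1 rose with IL-22 and 3 with both. They were Arih2, which starts ubiquitin transfer on cullin ligases (0.23 ± 0.05 with IL-22, 0.21 ± 0.05 with both), Nedd8, the modifier that activates cullins (0.26 ± 0.08), and Ube2f, its conjugating enzyme for the CUL5 ligase (0.19 ± 0.07, edgeR adjusted p = 0.04997, lost without each of 10 single libraries). In DESeq2 Nedd8 and Ube2f did not pass (adjusted p = 0.0568 and 0.115). Nedd8 lost its call without 3 libraries and Arih2 lost that with both without unstimulated replicate 2. Nedd8 shares 14.6% of its exon bases with another gene model. Of 27 other genes whose proteins carry a SOCS box, 3 had no count, 18 were tested, 2 rose and 2 fell with IL-22, and 1 rose and 2 fell with both. Spsb1, whose protein targets the inducible nitric oxide synthase for degradation, rose by 1.59 ± 0.21 and 1.26 ± 0.21 (edgeR adjusted p = 0.000116 and 0.000626). Asb4 fell by 1.90 ± 0.55 and 2.22 ± 0.57, from 106 summed counts in unstimulated cultures to 25 and 20, and those calls were lost without 4 single libraries and without unstimulated replicate 1. Asb11 was at 0.49 and Asb13 at -0.41 with IL-22, and Asb7 at -0.35 with both, and these calls were lost without each of 4, 5 and 7 single libraries. DESeq2 did not call Asb13 or Asb7 there (adjusted p = 0.0655 and 0.0535).

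Feedback inhibitors of IL-1 and NF-kB signalling were read for comparison. Of 17 tested genes edgeR called none with IL-1b alone (5 at an unadjusted p under 0.05, and 1, Zc3h12a, called by DESeq2), 5 rose and 1 fell with IL-22, and 7 rose and 1 fell with both. The lowest p with IL-1b was that of Zc3h12a, which encodes the RNase regnase-1, at 0.57 ± 0.10 (edgeR quasi-likelihood test, adjusted p = 0.0831), and it passed without unstimulated replicate 1 (adjusted p = 0.0330), in DESeq2 (0.00142), with total counts as the scaling (0.0402) and with no filter beyond 1 count (2.43e-05). With both cytokines Zc3h12a rose by 0.74 ± 0.10 (edgeR adjusted p = 0.000131). Tnip3 rose by 0.67 ± 0.11 with IL-22 and 0.75 ± 0.11 with both, Nfkbia, the gene of the NF-kB inhibitor, by 0.47 ± 0.08 and 0.52 ± 0.08, and Dusp1, a MAP kinase phosphatase gene, by 0.58 ± 0.09 with IL-22. Tnip1 fell by 0.33 ± 0.09 with IL-22, a call lost without IL-22 replicate 1 (edgeR adjusted p = 0.0630), and Nfkbie rose by 0.69 ± 0.24 with both, a call lost without each of 9 single libraries and in DESeq2 (adjusted p = 0.0962). Some of the genes named share exon bases with other gene models, which leaves their counts uncertain: Il10rb 14.9%, Rogdi 10.2%, Il4ra 9.51%, Ifnar2 9.46%, Jak3 7.55% and Zdhhc3 6.07%, and Stat3 and Stat5a share 72 bases with each other.

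**Figure D4:**
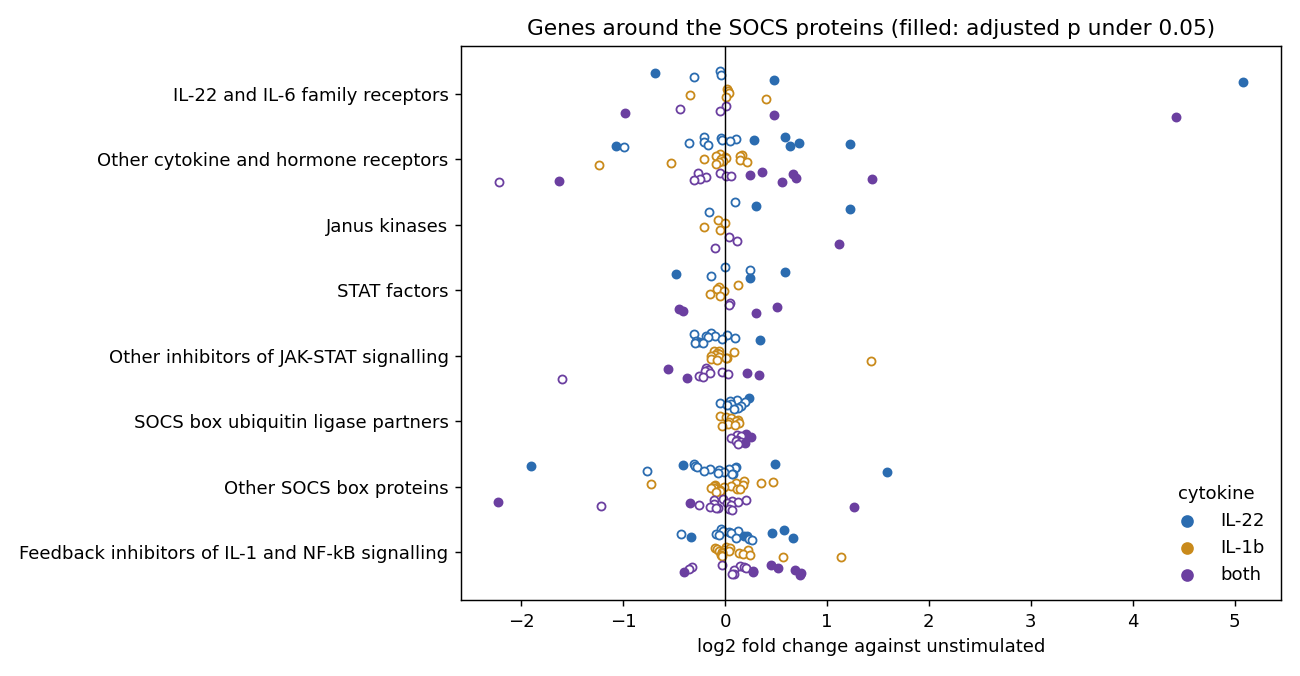
Log2 fold change against unstimulated cultures (x axis) of the tested genes in 8 lists around the SOCS proteins (rows), for IL-22, IL-1b and both cytokines (colours, offset vertically). Filled points passed the edgeR quasi-likelihood test at an adjusted p under 0.05. The farthest is Osmr, at 5.09 with IL-22 and 4.43 with both, and no point of IL-1b alone is filled.

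The labelled tissue was checked against markers. All 12 epithelial markers had counts in every library. They summed to 3270 to 3467 CPM in unstimulated libraries, 3086 to 3358 with IL-1b, 3408 to 3897 with IL-22 and 3606 to 3764 with both. In the IL-22 main effect 8 of the 12 were called higher and 0 lower by edgeR. Beside them 39.8% of all genes tested were called in either direction, 50.1% of those higher. The median log2 difference of the 12 markers was 0.14, so their level in CPM was mostly higher with IL-22 as well. Against unstimulated cultures edgeR called 2 of the 12 higher with IL-22 and 3 with both. The sum in IL-22 replicate 3 (3408 CPM) lay below that in unstimulated replicate 3 (3467 CPM). Raw counts of the 12 markers summed to 18281 to 18414 in unstimulated libraries and 17592 to 18069 with IL-22, so with IL-22 alone only the scaled level was higher. The 12 immune markers summed to 2.84 to 4.81 CPM in unstimulated libraries, 13.3 to 51.1 with IL-1b, 3.77 to 8.42 with IL-22 and 4.24 to 10.7 with both, and 3 of them were at 0 in all 12 libraries, among them Tyrobp. IL-1b replicate 1 was the highest, at 51.1 CPM, and it held 104 of the 136 counts of Ptprc, which marks all leukocytes, in the 3 IL-1b libraries, beside 20 and 12 in replicates 2 and 3. The unstimulated libraries held 0, 2 and 2. With IL-1b edgeR did not call Ptprc (adjusted p = 0.159), but it was called in DESeq2 (0.00150), with no filter beyond 1 count (2.34e-07) and without IL-1b replicate 3 (0.0434). Laptm5, another leukocyte marker, was likewise called in DESeq2 (adjusted p = 0.000653). The 10 stromal markers summed to 38.7 to 55.1 CPM in unstimulated libraries, 54.6 to 79.8 with IL-1b, 31.4 to 35.1 with IL-22 and 20.6 to 27.8 with both, and the 4 endothelial markers to 4.74 to 7.13, 4.89 to 8.32, 1.11 to 1.65 and 1.07 to 4.12. The endothelial sum was carried by Pecam1, and Pdgfrb was the largest part of the stromal sum in each library. In IL-1b replicate 1, however, Pdgfrb held only 34.2 of the 79.8 CPM and Vim 31.2. Pdgfrb, a receptor of pericytes and fibroblasts, had 39.8 CPM in unstimulated cultures, 21.4 with IL-22 and 13.3 with both, and Pecam1, an endothelial adhesion molecule, had 6.08, 1.23 and 2.13. Vim, the only other stromal marker tested, had 8.34, 10.4 and 9.21 CPM in the same order, and 18.4 CPM with IL-1b. Without Pdgfrb the stromal sum was 7.59 to 10.4 CPM in unstimulated libraries, 7.73 to 14.5 with IL-22 and 8.58 to 12.9 with both, and these groups overlapped. With IL-1b alone that sum was 14.7 to 45.6 CPM, above every library of the other groups, though at its lowest only just. Its largest parts were Vim, with 306 summed counts in the IL-1b libraries, and Thy1, with 71. The matrix genes Col1a1, Col1a2, Col3a1 and Dcn had 7, 0, 1 and 0 summed counts there. Cdh5, Kdr and Emcn, the other endothelial markers, had at most 1 summed count in a group. Pdgfrb and Pecam1 were thus lower, and the epithelial sum in CPM mostly higher, with IL-22, as Socs3 and Socs6 were higher and Cish lower, and their part in those results was not tested. Library totals were 4703902 to 5425743 with IL-22 present and 5225101 to 5804033 without, and the part of depth in the results was not tested either beyond the scaling alternatives given below.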

How the data were processed

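The 12 colonoid libraries (4 groups of 3, polyadenylated RNA) were read from 1 table of raw whole-number counts for each gene symbol, as the authors deposited it. The submitters' processing notes name build mm10. The libraries came from a stranded kit per the labels' protocols. For the aligner, counter, counting strand and removal of duplicate reads the entry is: not given in the sources used here.

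Of 35869 symbols, 13987 passed the low-count filter filterByExpr (edgeR 4.0.16, run in R 4.3.3). After TMM scaling, group means were fitted over all 12 libraries together (8 residual degrees of freedom) and contrasts tested by the quasi-likelihood F test. A gene is called at p under 0.05 after Benjamini-Hochberg adjustment across every tested gene. Each standard error is approximate (size of the log2 fold change divided by the root of F), and 95% intervals use the degrees of freedom of that test. CPM are counts relative to the TMM-scaled totals. Library totals were 4703902 to 5804033 counts, and Socs1, with 20 to 56 counts a library, had the largest standard error of the 8 members in each comparison.

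Lengths and positions are from GENCODE M21 on mm10, promoters from RefSeq (GRCm38.p6). The 8 members and the gene lists were chosen with earlier results of these data known. The text names all members and, from each list and comparison with unstimulated, up to 4 called genes with the largest change or the 2 with the lowest p where none was called, though of IL-1b alone only values that bear on a statement are given. Alternatives were DESeq2 1.42.0 (size factors, Wald test), total counts as the scaling, a filter at 1 CPM in 6 libraries, a filter at 1 count only, a replicate block, only the libraries compared, leaving out each library, removal of a trend of fold changes on counts per exon base (lowess, span 0.3) and, chosen after seeing the data, counts corrected for positions counted once. The fits were first tested on simulated data with known changes. Same-numbered replicates were not treated as pairs: their correlations lay between -0.188 and 0.179. One of the genes closest in profile to Cish, and 1 marker gene by name, are not reported here.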

Additional observations from a re-analysis of the deposited data

How the results depend on the processing

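Of 47 values of members followed through the alternatives, 14 were called in all settings: those of Socs3 and Socs6 in each contrast with against without IL-22 and those of Cish other than IL-22 against IL-1b. Over 976 recomputed values 933 kept direction and side of the threshold, 16 lost and 8 gained a call, and 19 changed sign, none of the last called. The replicate block (numbers shared by label only, 2 of 12 libraries correlating best with their own number) changed the call of no member. Of 58 calls of list and marker genes taken by the naming rule, it ended 6: Asb11 (0.0507) and Asb13 (0.0522) with IL-22, and Asb7 (0.0612), Il6ra (0.0695), Ube2f (0.0660) and Nfkbie (0.0727) with both. DESeq2 ended 9 of the 58, total counts 6, only the libraries compared 8, no filter beyond 1 count 4 and removal of the trend 10, and 24 were lost without at least 1 single library. Corrected for positions counted once, Socs3 rose by 4.24 with IL-22 and 4.29 with both. Leaving out 1 library gave Socs3 3.66 to 4.29 with IL-22.

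With total counts as the scaling, 37.7% of the genes called with IL-22 were higher against 52.8% (39.8% against 50.8% with both). Members lower then numbered 2 with both against unstimulated, 2 with both against IL-1b and 3 in the IL-22 main effect, the added ones being Socs7 (-0.32, edgeR adjusted p = 0.0473), Socs5 (adjusted p = 0.0487), and Socs5 and Socs7 (0.0215 and 0.0430). Socs1 lost its main effect call (0.0573; 0.0711 in DESeq2), and Socs4 with both went to -0.018. When the trend of fold changes on count per exon base was taken out, no member was lower for IL-22 against IL-1b (0, Cish at -0.30, adjusted p = 0.0981), Socs2 went to 0.084 with IL-22 and 0.0059 with both, and Socs5 to 0.0025 with IL-22. Leaving out 1 library gave 1 to 2 lower members with both against unstimulated, 0 to 2 for IL-22 against IL-1b and 1 to 3 in the main effect. It also turned the sign of uncalled values: Socs1 -0.044 to 0.39 and Socs2 -0.17 to 0.047 with IL-22; Socs1 -0.069 to 0.25, Socs3 -0.58 to 0.047, Socs4 -0.12 to 0.087 and Pdgfrb, a stromal marker, -0.17 to 0.069 with IL-1b; Socs4 -0.052 to 0.15 with both; Socs3 -0.010 to 0.063 for both against IL-22 and -0.014 to 0.62 in the interaction. The cause of these changes was not tested. Socs1 had the fewest counts, and its variance between replicates was 1.56 to 3.56 times its mean count, where counting error alone gives 1. How far more depth would narrow its intervals was not tested.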
